A study of Rattus norvegicus with 9 samples.

Results

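A set of 8 genes whose products mark or serve fat cells were followed in rat pubococcygeus, a muscle of the pelvic floor: Adipoq, Plin1, Lep, Cidec, Fabp4, Lpl, Pparg and Lipe. They were chosen by symbol, and all 8 were found among the 30518 rows of the deposited RNA-seq tables and passed the filter on low counts that left 16256 genes for testing. Libraries came from 3 groups of female Sprague-Dawley rats with 3 libraries each. In the stimulated group, a model of stress urinary incontinence (SUI), made by removing both ovaries and distending the vagina, was followed 1 week later by transvaginal electrical stimulation of the pelvic floor. That stimulation was a monophasic square wave of 50 Hz, 20 mA and 200 µs, given for 30 min on 5 days of each week for 2 weeks. The SUI group had the same ovary removal and distension and no treatment, and the blank group had neither surgery nor treatment. The names of the deposited libraries call the SUI group sham, whereas its titles describe the full model, so every comparison with SUI rests on the titles. Distension used an 8 Fr balloon catheter filled with 3 mL saline and loaded with 120 g for 4 h. No library came from rats with ovary removal or distension alone, so the effects of these steps cannot be told apart. The labels state no age for the rats. The study had 8 rats per group. The labels number the libraries of a group without tying them to single rats, so each p-value below reflects only how these libraries vary, which may be technical in part.

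Fat cells store triglyceride in a single large droplet and release it as fatty acids. The nuclear receptor PPAR-gamma, encoded by Pparg, and the C/EBP factors drive their formation and switch on the genes for droplet proteins, lipid carriers and secreted hormones. In skeletal muscle, fat cells lie between the fibres and fascicles and can arise from fibro-adipogenic progenitors, which are connective tissue cells of the muscle. In RNA from whole tissue, fewer cells of a type and less RNA per cell cannot be told apart.

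The libraries held between 50833480 and 147650284 counts, and blank 1 was the smallest. Blank 1 also stood apart from the others, with 32.9% of counts from the mitochondrial genome against 13.4 to 17.7% elsewhere, and with a median correlation with the other libraries of 0.920 against 0.949 to 0.968. Muscle fibre markers summed to between 109400 and 214400 CPM (counts scaled to a common library size) in every library. Epithelial markers summed to between 0.780 and 1.39 CPM. All 9 libraries carried a single batch label. Both fat cell hormone genes, Adipoq and Lep, were detected in every library, the lowest count being 20 for Lep in blank 1.

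The 8 genes spanned a wide range of levels. On the authors' FPKM scale, which corrects for gene length, the mean over the 9 libraries was highest for Fabp4 at 77.2 and Lpl at 59.4. Lipe followed at 7.12, Adipoq at 6.92, Cidec at 2.23, Plin1 at 1.47, Pparg at 0.733 and Lep at 0.429. Neighbours in this order mostly overlapped across libraries. Only Lpl and Lipe were separated in all 9 libraries without overlap of their ranges. Fabp4 exceeded Lpl in 6 of 9 libraries and Lipe exceeded Adipoq in 5 of 9, so the order within these pairs is not firm. Adipoq exceeded Cidec in 9 of 9 libraries, although their ranges overlapped. Cidec exceeded Plin1, Plin1 exceeded Pparg, and Pparg exceeded Lep, each in 7 of 9. Group means were 8.35 ± 9.05 FPKM in stimulated, 7.25 ± 5.67 FPKM in SUI and 5.16 ± 4.26 FPKM in blank muscle for Adipoq (SD, n = 3 each).

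The genes lie on 5 chromosomes in the mRatBN7.2 build that the submitters' processing notes name. Adipoq (ENSRNOG00000001821) lies at chr11:77721912-77735564 on the minus strand and Plin1 (ENSRNOG00000015086) at chr1:133664892-133676828 on the minus strand. Lep (ENSRNOG00000045797) is at chr4:57661131-57675262 on the plus strand, and Cidec (ENSRNOG00000009153) at chr4:146569289-146582173 on the minus strand. Pparg (ENSRNOG00000008839) spans chr4:148423194-148548468 on the plus strand. Fabp4 (ENSRNOG00000010805) is at chr2:91580885-91585578 on the plus strand. Lpl (ENSRNOG00000012181) is at chr16:20829465-20855249 and Lipe (ENSRNOG00000020546) at chr1:80965627-80984310, both on the minus strand.

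Adipoq encodes adiponectin, a hormone made by fat cells. Its level, in CPM scaled by library size and composition, was 2.05, 9.24 and 33.6 in stimulated 1 to 3, 6.92, 5.32 and 25.1 in SUI 1 to 3, and 9.64, 16.7 and 2.80 in blank 1 to 3. The highest library of each group was stimulated 3, SUI 3 and blank 2, and the groups overlapped. Plin1, which encodes the protein that coats the fat droplet and gates lipase access, had 0.518, 1.89 and 9.58 CPM in stimulated, 3.16, 1.55 and 5.88 CPM in SUI, and 2.78, 5.26 and 1.18 CPM in blank libraries. Again the same 3 libraries were the highest of their groups and stimulated 1 was the lowest of all 9. Lep, the gene of the satiety hormone leptin, had 0.358, 0.876 and 4.75 CPM in stimulated, 0.983, 0.976 and 4.68 CPM in SUI, and 0.530, 1.77 and 0.286 CPM in blank libraries. For leptin the lowest library was blank 3. Cidec, whose product fuses fat droplets, had 1.06, 2.73 and 11.5 CPM in stimulated, 4.03, 2.40 and 11.1 CPM in SUI, and 0.741, 4.27 and 2.22 CPM in blank libraries. Blank 1 was lowest for Cidec. Across all 9 libraries the highest level was 16.4 times the lowest for Adipoq, 18.5 times for Plin1, 16.6 times for Lep and 15.6 times for Cidec.

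**Figure D1:**
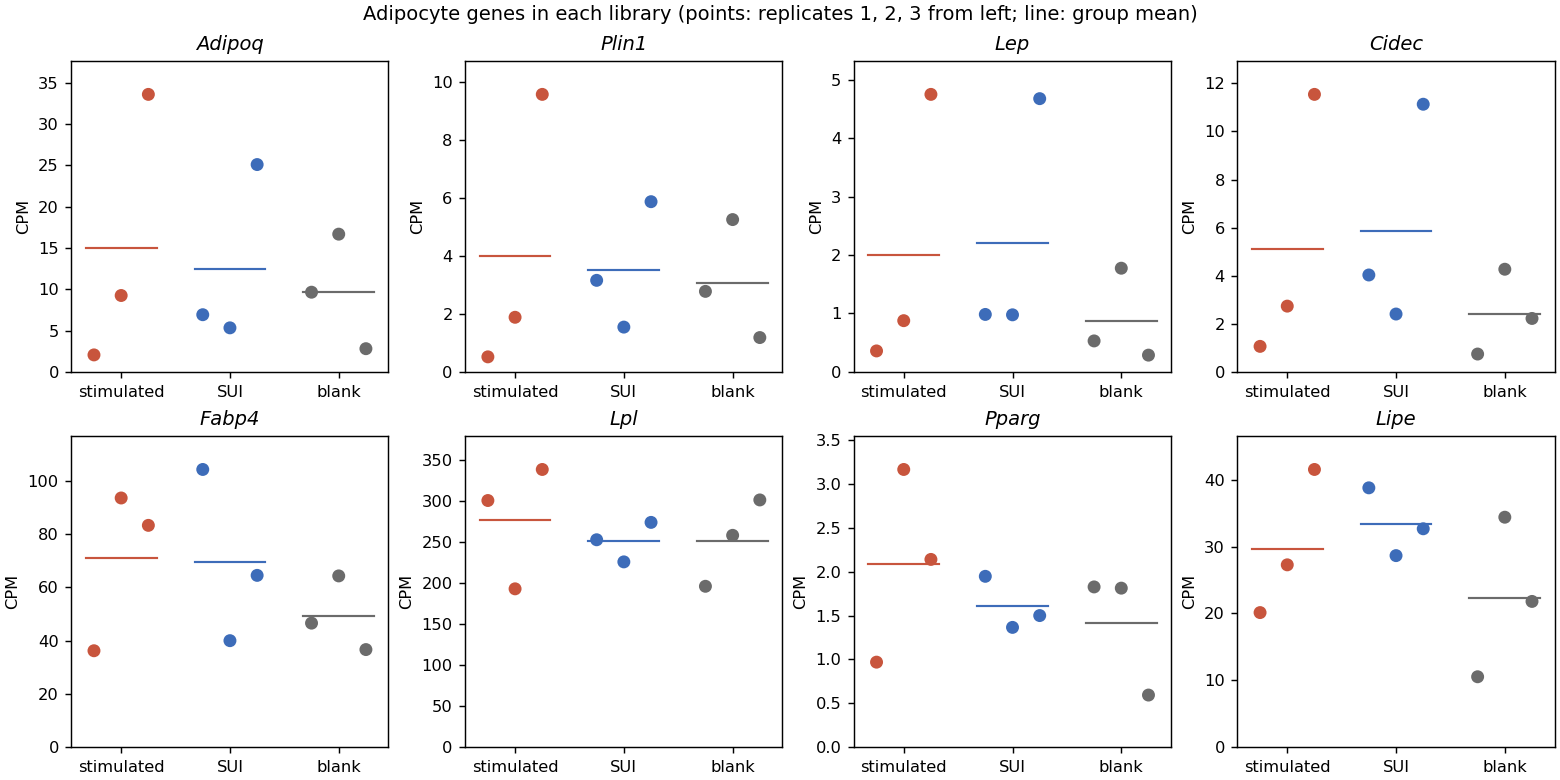
Level of each adipocyte gene in CPM (vertical axes, linear from 0, 1 panel per gene) in stimulated, SUI and blank muscle, with 1 point per library (replicates 1, 2 and 3 from left to right) and a line at the group mean. In the upper row, stimulated 3, SUI 3 and blank 2 stand above the other libraries of their groups, while the genes of the lower row differ less between libraries.

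These 4 genes ranked the same libraries at the top. Stimulated 3 was the highest of the 9, SUI 3 the next and blank 2 the one after for each of Adipoq, Plin1, Lep and Cidec. The ratio of Plin1 to Adipoq CPM within a library stayed between 0.204 and 0.457, a 2.24-fold range, while the genes alone varied 18.5-fold and 16.4-fold. Lep to Adipoq ran from 0.0550 to 0.187, a 3.39-fold range. Cidec to Adipoq ran from 0.0769 to 0.792, and its lowest value was blank 1, without which it ran from 0.256 to 0.792. The libraries share a tissue and a batch label, and these ratios are a description that carries no test. Cidec is also the gene for which count and FPKM were least alike: its length implied by the 2 tables ran from 1.98 kb in SUI 3 to 2.41 kb in blank 1, a 1.22-fold range, against 1.03- to 1.10-fold for the other 7 genes.

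**Figure D2:**
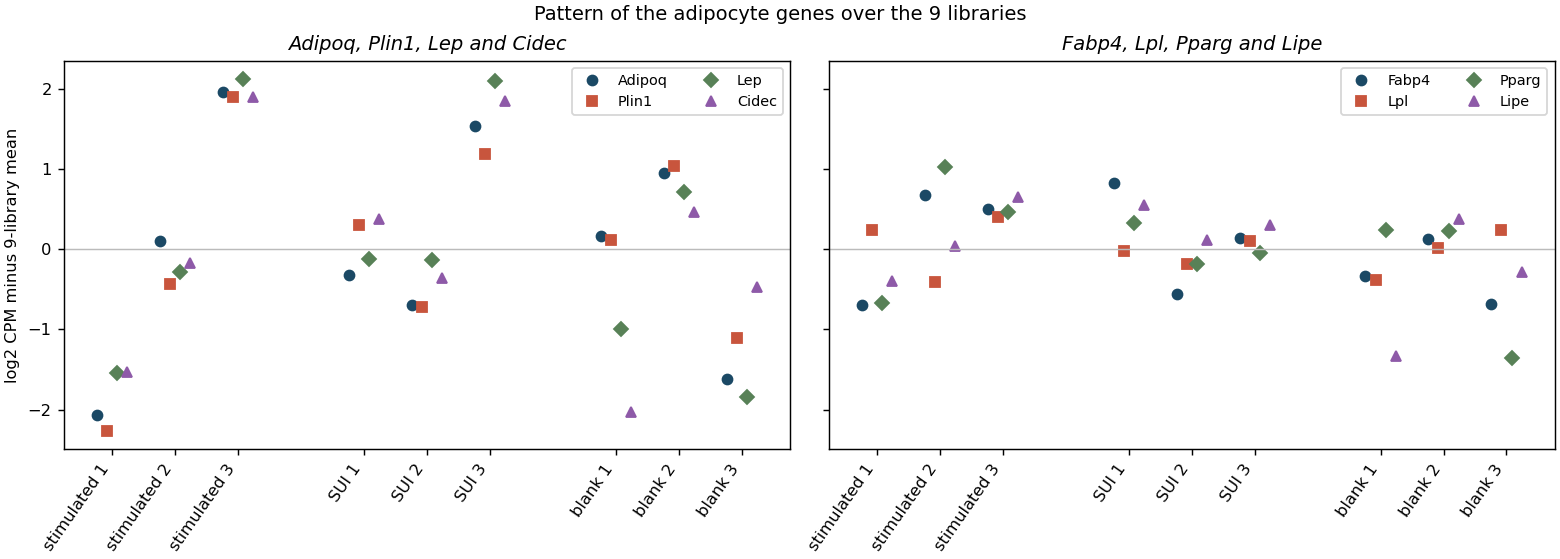
Log2 CPM of each adipocyte gene minus its mean over the 9 libraries (vertical axis), by library (horizontal axis). In the left panel, Adipoq, Plin1, Lep and Cidec lie together at the top in stimulated 3 and SUI 3 and low in stimulated 1, whereas Fabp4, Lpl, Pparg and Lipe in the right panel scatter more closely around 0 with less shared order.

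The sequence just upstream of each start of these 4 genes is shown as a description, and its part in their shared pattern was not tested. Promoter windows came from RefSeq on the GRCr8 build and hold the 250 bases before the start, and capitals mark TTGCNNAA, a motif read by the C/EBP factors. Of the 8 genes, 5 had an entry, and Fabp4, Lpl and Lipe did not. The Adipoq window is chr11:91240170-91240419 (minus strand), the Plin1 window chr1:143086149-143086398 (minus strand), the Lep window chr4:58626288-58626537 (plus strand) and the Cidec window chr4:148137116-148137365 (minus strand).
Adipoq: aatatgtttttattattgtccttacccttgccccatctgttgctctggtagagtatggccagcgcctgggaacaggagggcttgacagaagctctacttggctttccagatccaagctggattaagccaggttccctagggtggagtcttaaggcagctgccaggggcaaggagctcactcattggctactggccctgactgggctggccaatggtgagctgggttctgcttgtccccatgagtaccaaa
Plin1: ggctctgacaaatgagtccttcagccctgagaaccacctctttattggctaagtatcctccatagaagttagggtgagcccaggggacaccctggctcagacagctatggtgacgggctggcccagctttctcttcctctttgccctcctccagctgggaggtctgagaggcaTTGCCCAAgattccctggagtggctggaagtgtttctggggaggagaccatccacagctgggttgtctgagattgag
Lep: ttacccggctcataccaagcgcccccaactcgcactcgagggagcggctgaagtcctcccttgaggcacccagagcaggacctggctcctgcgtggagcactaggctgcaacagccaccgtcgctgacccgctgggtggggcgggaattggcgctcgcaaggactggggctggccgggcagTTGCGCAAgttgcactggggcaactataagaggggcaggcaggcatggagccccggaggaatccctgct
Cidec: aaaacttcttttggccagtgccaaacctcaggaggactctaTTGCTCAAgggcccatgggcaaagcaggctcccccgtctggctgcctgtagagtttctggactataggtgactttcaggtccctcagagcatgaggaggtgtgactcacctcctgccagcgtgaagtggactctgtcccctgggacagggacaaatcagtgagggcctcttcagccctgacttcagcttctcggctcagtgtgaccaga
Searched on both strands, TTGCNNAA began 77 bases before the start in Plin1 as TTGCCCAA, 69 bases before in Lep as TTGCGCAA, and 209 bases before in Cidec as TTGCTCAA. Pparg has a pair of windows, and the downstream one holds TTGCCAAA 174 bases before its start. Of the 5 genes with an entry, 4 held the motif in at least 1 window, and Adipoq had no match. By window, 4 of their 6 held it. Among all 33469 windows of the table, 9.22% held TTGCNNAA. AGGTCA, the single site read by nuclear receptors, was in 14.1% of all windows, a pair of them spaced by 1 base (the DR1 element of PPAR-gamma with its partner RXR) in 0.0508% and TATAAA in 12.9%, and 0 of the 5 genes held any of these 3. AGGTCA is part of DR1, so those shares overlap. A match of letters is no evidence of binding.

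Genes were ranked by how closely their level over the libraries followed that of Adipoq, among 11281 with a mean of at least 1 CPM and a named symbol. The measure was the root mean square difference of log2 CPM after centring each gene over the 9 libraries. It takes in the size of the changes as well as their order, so a flat gene can stand ahead of many others without following Adipoq. The smallest difference was that of Plin1 at 0.351, and Lep was next at 0.534. Rbp4, which encodes a retinol carrier secreted by liver and fat, followed at 0.602 with 0.907, 2.46 and 9.63 CPM in stimulated, 1.47, 0.994 and 9.60 CPM in SUI, and 1.06, 2.49 and 0.504 CPM in blank libraries. Its high libraries were again stimulated 3, SUI 3 and blank 2. The rest of the closest 10 were Prkar2b (0.662), a regulatory subunit of protein kinase A, Mgst1 (0.737), Ces1c (0.737), Pfas (0.790), Apba1 (0.841), Oxtr (0.850), the oxytocin receptor, and Trarg1 (0.860), a partner of the insulin-responsive glucose transporter. Of the remaining members, Cidec stood at rank 14 (0.907), Pparg at 35 (0.990), Fabp4 at 49 (1.02), Lipe at 260 (1.14) and Lpl at 3314 (1.29).

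The other 4 genes had flatter patterns than Adipoq, Plin1, Lep and Cidec. They are also made outside fat cells, and the cell source of their transcripts here was not tested. Fabp4 encodes a fatty acid carrier that capillary endothelium and macrophages make too. It had 36.2, 93.6 and 83.3 CPM in stimulated, 104, 39.9 and 64.5 CPM in SUI, and 46.5, 64.3 and 36.6 CPM in blank libraries. Stimulated 1 was the lowest, as for Adipoq, but SUI 1 was the highest, and the groups overlapped. Lpl encodes lipoprotein lipase, which frees fatty acids from circulating triglyceride at the capillary wall and is made by muscle fibres as well as fat cells. It had 301, 193 and 339 CPM in stimulated, 253, 226 and 274 CPM in SUI, and 196, 258 and 302 CPM in blank libraries. Its highest value was 1.75 times the lowest, the narrowest range of the 8. Pparg had 0.968, 3.17 and 2.14 CPM in stimulated, 1.95, 1.37 and 1.50 CPM in SUI, and 1.83, 1.81 and 0.592 CPM in blank libraries. Stimulated 2 was its highest library and blank 3 its lowest, a 5.35-fold range. Lipe encodes hormone-sensitive lipase, which cuts stored fat in fat cells and muscle fibres. It had 20.1, 27.3 and 41.6 CPM in stimulated, 38.8, 28.6 and 32.7 CPM in SUI, and 10.5, 34.4 and 21.8 CPM in blank libraries. The SUI libraries sat close together, and blank 1 was the lowest of all.

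Within a group, Adipoq, Lep, Plin1 and Cidec were among the most variable genes tested. Their SD of log2 CPM between libraries of a group was 1.55 for Adipoq, 1.51 for Lep, 1.46 for Plin1 and 1.39 for Cidec, against a median of 0.438 over the 16256 genes. These values lay at percentiles 96.4, 96.0, 95.4 and 94.3 of all genes. Pparg at 0.743, Fabp4 at 0.634 and Lipe at 0.596 lay at percentiles 77.1, 70.3 and 67.3, and Lpl at 0.317 lay below the median, at percentile 31.1. For every one of Adipoq, Plin1, Lep and Cidec this spread exceeded the distance between the highest and lowest group mean of log2 CPM. That distance was 0.344 for Adipoq, 0.527 for Plin1, 1.32 for Lep and 1.30 for Cidec. The same held for Fabp4 (distance 0.455), Lpl (0.121) and Pparg (0.573), so it was not particular to those genes. Only Lipe had a distance, 0.734, above its spread.

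**Figure D3:**
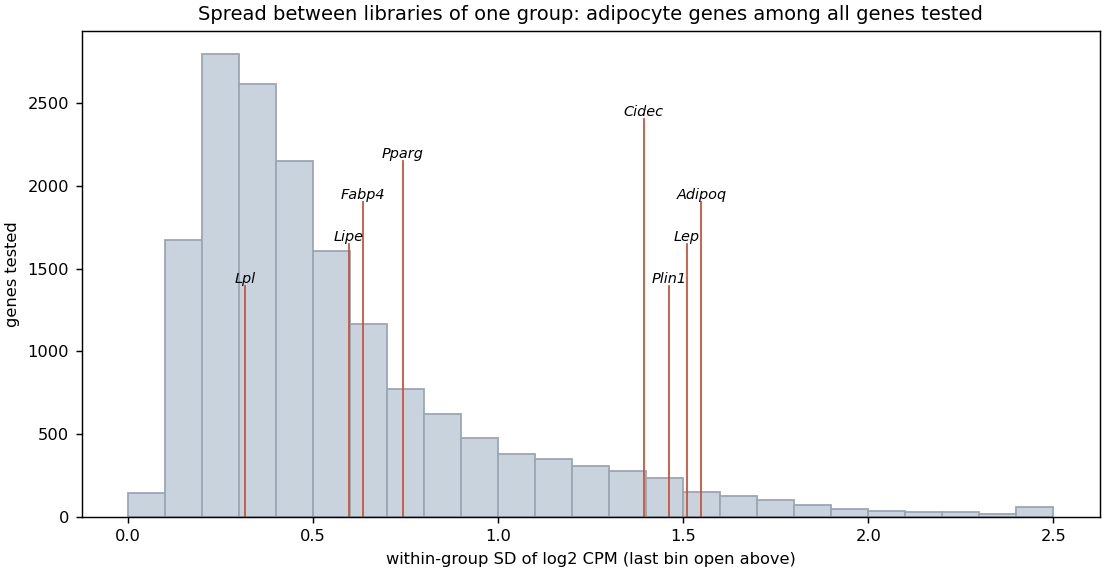
Number of genes tested (vertical axis) by SD of log2 CPM between libraries of a group (horizontal axis, with the last bin open above), with lines marking the adipocyte genes; line heights only space the names. Adipoq, Lep, Plin1 and Cidec lie in the right tail between 1.39 and 1.55, and Lpl lies at 0.317, below the median of 0.438.

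The first comparison asked whether stimulation changed these genes in muscle of the SUI model. None of the 8 passed edgeR's quasi-likelihood test at an adjusted p of 0.05 (0.0123% of all genes, or 2, did), 0 of 8 had an unadjusted p under 0.05 (8% of all genes did), and DESeq2 called 0 of 8 and 1.28% of all genes (208). Adipoq averaged 15.0 ± 16.5 CPM in stimulated and 12.4 ± 11.0 CPM in SUI libraries (SD, n = 3 each), a log2 fold change of 0.27 ± 0.95 (SE) with a 95% interval of -1.87 to 2.40. Plin1 averaged 4.00 ± 4.89 CPM in stimulated and 3.53 ± 2.19 CPM in SUI libraries (log2 0.18 ± 0.92). The mean of log2 CPM gave the opposite order for both, for instance 3.11 in stimulated and 3.29 in SUI for Adipoq. Lep averaged 2.00 ± 2.40 CPM in stimulated and 2.21 ± 2.13 CPM in SUI libraries, with an interval of -2.41 to 2.11 around a log2 change of -0.15. Cidec averaged 5.11 ± 5.63 CPM in stimulated and 5.85 ± 4.64 CPM in SUI libraries, a log2 change of -0.20 ± 0.89. The narrowest interval was that of Lpl, -0.43 to 0.72 around 0.15 ± 0.26, with 278 ± 75.6 CPM in stimulated and 251 ± 24.2 CPM in SUI libraries. Fabp4 averaged 71.0 ± 30.6 CPM in stimulated and 69.6 ± 32.5 CPM in SUI libraries (log2 0.03 ± 0.42). Pparg averaged 2.09 ± 1.10 CPM in stimulated and 1.60 ± 0.305 CPM in SUI libraries (log2 0.38 ± 0.51), and its edgeR adjusted p of 0.918 was the lowest of the 8. Lipe averaged 29.7 ± 10.9 CPM in stimulated and 33.4 ± 5.11 CPM in SUI libraries (log2 -0.17 ± 0.40). Single libraries moved the Adipoq value, which stood at -1.14 without stimulated 3 and at 1.29 without SUI 3. The groups overlapped for all 8 genes, while 18.8% of all genes tested showed no overlap. Signs were positive for 5 of 8, but for 3 of 8 when libraries were scaled by their totals alone, where Fabp4 (-0.13) and Lpl (-0.01) turned, for 1 of 8 on the log2(FPKM + 1) scale, and for 8 of 8 with voom sample weights. The median over the 8 was 0.087, against 0.025 over all genes.

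The next comparison asked whether the SUI model itself was accompanied by a change. Here edgeR called 0 of the 8 and 0% of all genes, with 8.18% of all genes and 0 of 8 at an unadjusted p under 0.05, while DESeq2 called 0 of the 8 and 1.09% of all genes (176). Lep averaged 2.21 ± 2.13 CPM in SUI and 0.863 ± 0.798 CPM in blank libraries, 2.52-fold with an interval of 0.505 to 12.6. That value moved to a log2 change of 0.16 without SUI 3 and to 2.47 without blank 2, against 1.33 with all libraries. Cidec averaged 5.85 ± 4.64 CPM in SUI and 2.41 ± 1.77 CPM in blank libraries, a log2 change of 1.26 ± 0.91 with an interval of -0.77 to 3.29. Without blank 1 the Cidec change was 0.85. Lipe averaged 33.4 ± 5.11 CPM in SUI and 22.2 ± 12.0 CPM in blank libraries, a log2 change of 0.58 ± 0.40 that was 0.27 without blank 1. Its edgeR adjusted p of 0.669 was the lowest of the 8. Fabp4 averaged 69.6 ± 32.5 CPM in SUI and 49.1 ± 14.0 CPM in blank libraries (log2 0.50 ± 0.42). Adipoq averaged 12.4 ± 11.0 CPM in SUI and 9.70 ± 6.93 CPM in blank libraries (log2 0.36 ± 0.96). The log2 changes of Plin1 and Pparg were 0.19 ± 0.93 and 0.19 ± 0.52. Lpl was at 251 ± 24.2 CPM in SUI and 252 ± 53.0 CPM in blank libraries, a fold of 0.996 with an interval of 0.667 to 1.49. Signs were positive for 7 of 8, and for 8 of 8 with library totals alone, where Lpl stood at 0.15 and the median of all genes at 0.194, but for 5 of 8 without SUI 3 and for 5 of 8 without blank 3. The groups overlapped for all 8, and 15.1% of all genes did not overlap.

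The last comparison set stimulated against blank muscle and shares its libraries with the comparisons above. edgeR called 0 of 8 members and 0.00615% of all genes (1 gene), DESeq2 called 0 of the 8 and 0.13% of all genes (21), and 0 of 8 against 3.77% of all genes had an unadjusted p under 0.05. Log2 changes were 0.62 ± 0.96 for Adipoq, 0.37 ± 0.93 for Plin1, 1.18 ± 1.03 for Lep, 1.07 ± 0.90 for Cidec, 0.53 ± 0.42 for Fabp4, 0.14 ± 0.26 for Lpl, 0.58 ± 0.52 for Pparg and 0.41 ± 0.40 for Lipe, and the lowest edgeR adjusted p among them was 0.898. All 8 signs were positive, with a median of 0.553 against 0.043 over all genes, but without stimulated 3 only 3 of 8 were. The Lep interval, -1.13 to 3.49, shows how wide a change these 3 libraries a group leave possible. All 8 overlapped between the groups, against 12.6% of all genes that did not. A p that misses the threshold does not show that the groups are alike.

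**Figure D4:**
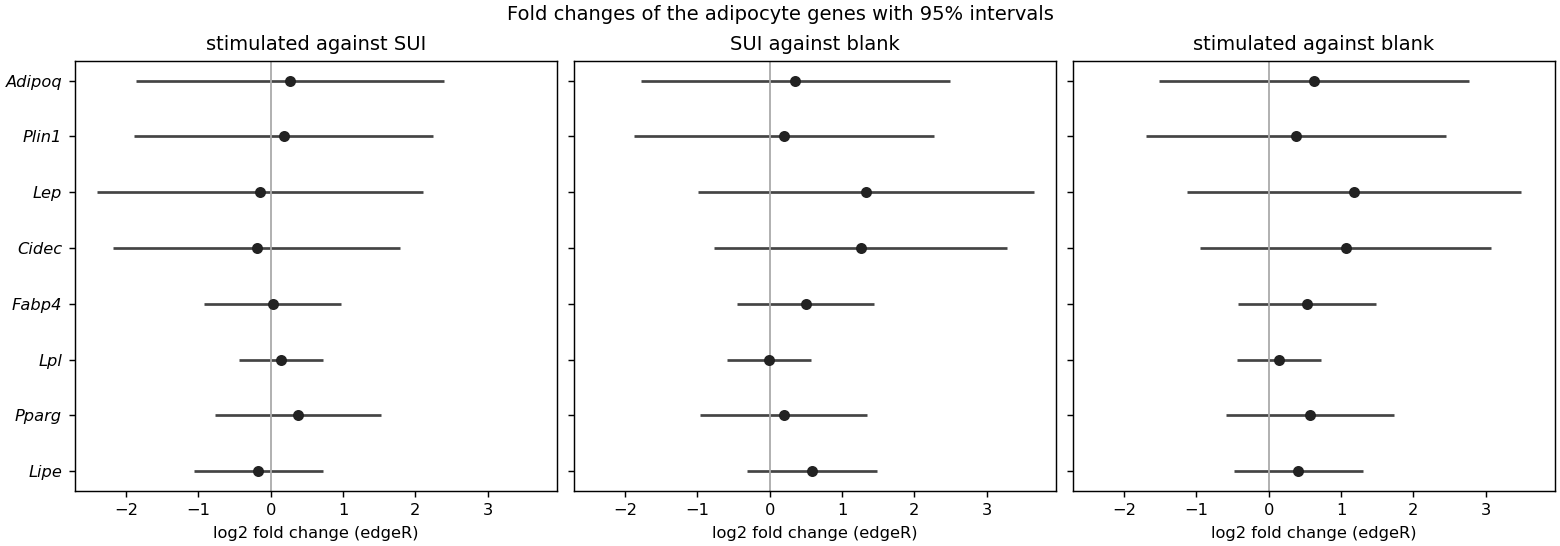
Log2 fold change of each adipocyte gene (edgeR, all 9 libraries in 1 fit) with its 95% interval, for stimulated against SUI, SUI against blank and stimulated against blank. Every interval crosses 0, and those of Adipoq, Plin1, Lep and Cidec are the widest while that of Lpl is the narrowest.

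A further 14 lists of genes around fat cells and the other cells of the muscle were read in the same fit. Together with the 8 genes, these lists held 155 symbols, of which 141 were tested. No listed gene was called by edgeR in any comparison. Of 18 tested mature fat cell markers other than the 8, 1 was higher and 1 lower at an unadjusted p under 0.05 in SUI against blank, 1 higher in stimulated against SUI, and 1 higher in stimulated against blank. Over all genes the unadjusted shares were 2.84% higher and 5.34% lower in SUI against blank, 5.23% higher and 2.77% lower in stimulated against SUI, and 1.96% higher and 1.81% lower in stimulated against blank. In stimulated against SUI, 10 of the 18 log2 changes were positive and 8 negative, with a median of 0.164 against 0.025 over all genes. The gene with the smallest p was Mest, an imprinted gene of expanding fat cells. It had 8.43, 11.9 and 11.6 CPM in stimulated, 2.18, 1.56 and 3.70 CPM in SUI, and 5.35, 8.58 and 6.41 CPM in blank libraries. Its stimulated libraries all lay above its SUI libraries (18.8% of all genes did not overlap there), at a log2 change of 2.10 ± 0.35. The adjusted p was 0.181 with edgeR, 6.89e-06 with DESeq2 and 0.0269 with voom. Mest was also the lower gene in SUI against blank, at a log2 change of -1.455 ± 0.34 with an edgeR adjusted p of 0.397. Unlike Adipoq, it stood lower in SUI 3 than in every blank library, and the cell source of its transcripts was not tested. Adrb3, the fat cell beta-3 adrenergic receptor, did not pass the filter, with counts of 3, 4 and 30 in stimulated, 0, 0 and 18 in SUI, and 0, 8 and 0 in blank libraries. It is named after its values were seen, and its counts were highest in the same 3 libraries as Adipoq.

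Of 15 enzymes of triglyceride and fatty acid synthesis, 13 had a positive log2 change in SUI against blank. At an unadjusted p under 0.05, 4 of the 15 were higher and 0 lower, against 2.84% of all genes higher, and the list median was 0.668 against 0.008 over all genes. The list did not separate the groups by library: its mean centred log2 CPM was -0.129, -0.055 and 0.866 in SUI 1 to 3 and -0.583, -0.056 and -0.472 in blank 1 to 3. SUI 3 was the highest, and the lowest was blank 1, the library with 32.9% mitochondrial counts, whose part in this was not tested. Acacb, the carboxylase that makes the malonyl-CoA that restrains fatty acid burning, had 184, 119 and 171 CPM in stimulated, 519, 243 and 262 CPM in SUI, and 87.5, 152 and 179 CPM in blank libraries. Its SUI libraries lay above all blank libraries (15.1% of all genes did not overlap there), with a log2 change of 1.29 ± 0.37. The adjusted p was 0.504 with edgeR, 0.0566 with DESeq2 and 0.246 with voom. Stimulated against SUI was -1.11 ± 0.37 with an edgeR adjusted p of 0.507. Fasn, fatty acid synthase, had 13.7, 17.6 and 73.6 CPM in stimulated, 8.03, 10.1 and 90.0 CPM in SUI, and 5.64, 11.0 and 6.94 CPM in blank libraries. Like Adipoq it was high in stimulated 3 and SUI 3, and its SUI against blank change of 2.19 ± 0.96 was 0.207 without SUI 3. With all libraries the adjusted p of Fasn there was 0.606 with edgeR and 0.535 with voom, and DESeq2 gave none. Thrsp, a lipogenic protein counted among the mature markers, had the same peaks, with 32.4 CPM in stimulated 3 and 43.3 CPM in SUI 3.

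In stimulated against SUI, 2.77% of all genes were lower and 5.23% higher at an unadjusted p under 0.05. Of 12 lipolysis and droplet genes, 0 were higher and 1 was lower. That gene, Pnpla2, the first lipase of fat breakdown, had 132, 80.4 and 125 CPM in stimulated, 613, 152 and 167 CPM in SUI, and 66.4, 129 and 233 CPM in blank libraries. Stimulated and SUI did not overlap (nor did they for 18.8% of all genes), while blank overlapped both. The stimulated against SUI log2 change was -1.46 ± 0.60, and it was -0.49 without SUI 1. With all libraries the adjusted p was 0.575 with edgeR, 0.224 with DESeq2 and 0.381 with voom. Angptl4, a secreted inhibitor of lipoprotein lipase, had 1.74, 1.15 and 2.28 CPM in stimulated, 18.3, 12.1 and 4.11 CPM in SUI, and 0.503, 3.96 and 3.66 CPM in blank libraries. The SUI libraries lay above both other groups. Of all genes, 15.1% did not overlap between SUI and blank and 18.8% between stimulated and SUI. The log2 change was -2.74 ± 0.73 in stimulated against SUI (adjusted p 0.423 with edgeR, 0.00781 with DESeq2 and 0.0924 with voom). It was 2.07 ± 0.71 in SUI against blank (edgeR adjusted p 0.549). Ucp1, which encodes the heat-producing proton carrier of brown fat, had 0 counts in all 9 libraries. The limit that 3 counts set was 0.0210 to 0.0794 CPM per library, for counting error only. Ucp1, like Adrb3, is named after its values were seen.

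In stimulated against SUI, 11 of 16 log2 changes of the transcription factors of fat cell formation were positive. Their median was 0.366 against 0.025 over all genes. At an unadjusted p under 0.05, 1 of the 16 was higher and 1 lower, against 5.23% and 2.77% of all genes. The higher one was Tle3, a co-regulator of PPAR-gamma, with 7.96, 12.0 and 9.58 CPM in stimulated, 5.28, 7.19 and 6.81 CPM in SUI, and 6.49, 8.41 and 8.48 CPM in blank libraries. Its stimulated libraries all lay above its SUI libraries (18.8% of all genes did not overlap there), at a log2 change of 0.62 ± 0.23. The adjusted p was 0.538 with edgeR, 0.262 with DESeq2 and 0.14 with voom. The lower one was Cebpd, an early factor of that program. It had 43.3, 26.6 and 39.4 CPM in stimulated, 120, 56.9 and 52.4 CPM in SUI, and 29.0, 27.4 and 61.8 CPM in blank libraries. Its stimulated against SUI log2 change was -1.07 ± 0.41. The adjusted p was 0.552 with edgeR, 0.241 with DESeq2 and 0.322 with voom. Of 7 brown and beige markers, 2 were higher in SUI against blank at an unadjusted p under 0.05, against 2.84% of all genes. In stimulated against SUI 1 of the 7 was lower, against 2.77% of all genes. Of 4 adipokine receptors, 0 passed in any comparison. Of 12 preadipocyte and fibro-adipogenic progenitor markers, 5 were higher and 0 lower at an unadjusted p under 0.05 in stimulated against SUI. Over all genes these shares were 5.23% and 2.77%, and the list median was 1.43 against 0.025 over all genes. By library, the mean centred log2 CPM of this list was -0.416, 1.60 and 0.54 in stimulated 1 to 3. It was -0.488, -0.69 and -0.743 in SUI 1 to 3, so stimulated 1 lay close to SUI 1 and stimulated 2 stood far above both. In SUI against blank 0 of the 12 were higher and 2 lower, against 2.84% and 5.34% of all genes. Col15a1, a basement membrane collagen of these cells, had 103, 155 and 99.8 CPM in stimulated, 21.0, 19.5 and 53.0 CPM in SUI, and 70.9, 92.8 and 58.1 CPM in blank libraries. Its log2 change was 1.94 ± 0.40 in stimulated against SUI. The adjusted p was 0.274 with edgeR, 0.00115 with DESeq2 and 0.0636 with voom.

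At the same unadjusted level, stimulated against SUI had 3 of 10 endothelial and 1 of 9 macrophage markers higher and 0 lower. Of all genes, 5.23% were higher and 2.77% lower there. For muscle fibre markers, 0 of 10 passed in any comparison. The progenitor markers had another order of libraries than the fat cell hormones. Their summed level was 234, 601 and 322 CPM in stimulated, 105, 171 and 165 CPM in SUI, and 262, 299 and 242 CPM in blank libraries, so stimulated 2, and not stimulated 3, was highest. Macrophage markers summed to 40.1, 280 and 141 CPM in stimulated, 224, 128 and 77.5 CPM in SUI, and 108, 167 and 209 CPM in blank libraries. Stimulated 1 was lowest and stimulated 2 highest for both macrophage markers and, within the stimulated group, Fabp4. Endothelial markers summed to 379, 486 and 378 CPM in stimulated, 357, 272 and 308 CPM in SUI, and 353, 347 and 243 CPM in blank libraries. Their part in the Fabp4 values was not tested. Mature markers other than the 8 had their highest mean of centred log2 CPM in stimulated 3 at 1.21 and SUI 3 at 0.594, the same libraries as the 8 genes at 1.24 and 0.895. Red cell markers were also highest in stimulated 3 at 1.81, but stood at -0.98 in SUI 3, and their part in the pattern was not tested. That list held only Alas2 and Slc4a1, since the haemoglobin symbols Hba-a1 and Hbb matched no row.

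**Figure D5:**
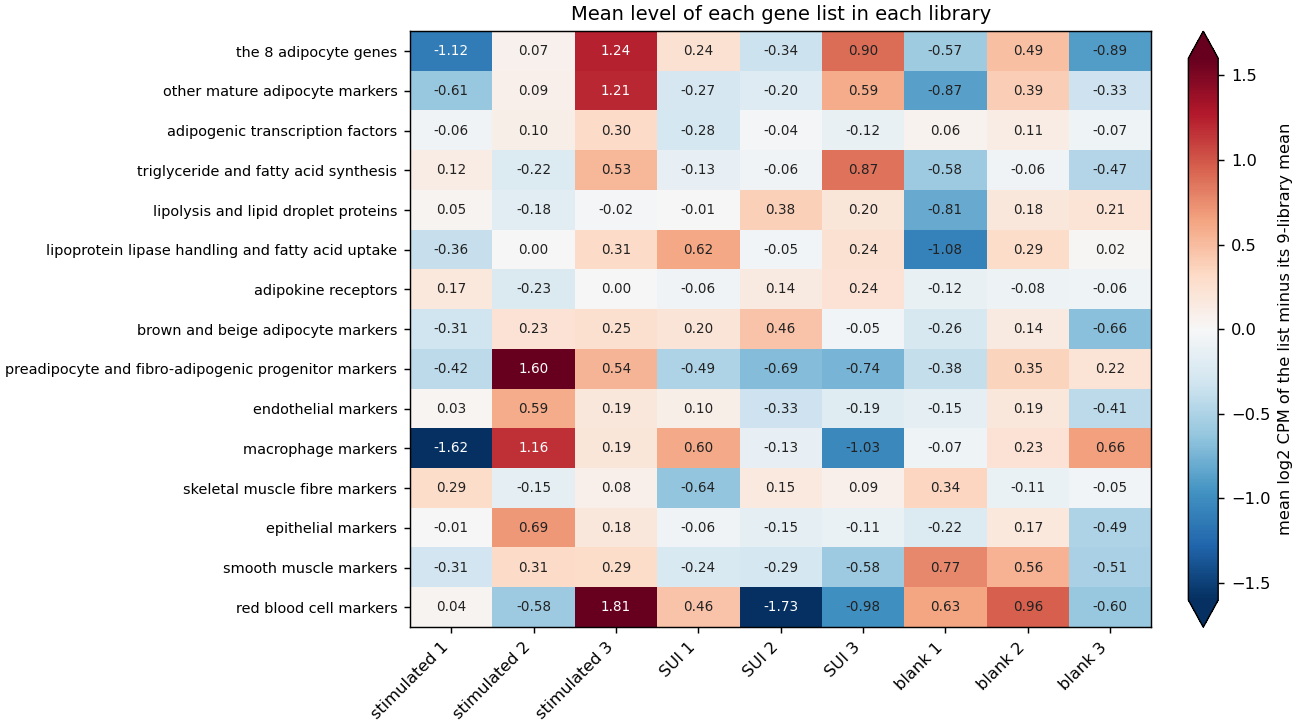
Mean log2 CPM of each gene list minus its own mean over the 9 libraries (colour and number), for the adipocyte genes and 14 other lists (rows) in each library (columns). The adipocyte genes and the other mature markers are both highest in stimulated 3 (1.24 and 1.21) and in SUI 3 next (0.90 and 0.59), while progenitor and macrophage markers are highest in stimulated 2.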

How the data were processed

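RNA of 9 pubococcygeus libraries was sequenced, 3 per group, and group and replicate were taken from the sample titles, where the library names call the SUI group sham. The submitters' processing notes list RSEM 1.3.1, Bowtie2, DESeq2 1.4.5 and the mRatBN7.2 build, and no source used here states strand handling. Expected counts deposited by the authors, estimated per gene, are whole numbers in the table, and estimation can divide reads between similar or overlapping genes. The deposited FPKM values are the authors' counts scaled by gene length and library size. Where a symbol recurred (1004 rows), the row with the largest mean count was taken. The 4341 rows without a symbol (0.922 to 1.57% of counts) kept their Ensembl IDs in the tests.

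Counts were filtered with filterByExpr (16256 genes), scaled by TMM and tested with edgeR 4.0.16 (R 4.3.3, quasi-likelihood F test, robust, all 9 libraries in 1 fit), with Benjamini-Hochberg adjustment over all genes at 0.05. The SE is the size of the log2 change over the square root of F. CPM uses TMM-scaled totals, log2 CPM a prior count of 2. The tests were also run on simulated counts with known changes in stimulated against SUI. There edgeR called 4% of 100 genes with a log2 change of 1 and 77% of 100 genes with a log2 change of 2. Alternatives used DESeq2 1.42.0, limma 3.58.1 and log2(FPKM + 1) or log2(FPKM + 0.1). No libraries of the 36 pairs were identical.

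Besides the 8 genes, up to 4 genes per list with the smallest unadjusted p in any comparison were eligible to be named, and the 10 genes closest to Adipoq. The 8 genes and the lists were chosen with earlier results of these data known.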

Additional observations from a re-analysis of the deposited data

How the results depend on the processing

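The count of the 8 genes called was 0 in every comparison under all alternatives, and the lowest adjusted p of any member was 0.401. The lowest unadjusted p, 0.0262, was that of Lipe in SUI against blank without blank 2. Counts of all genes called moved more. In SUI against blank, edgeR called 0 and DESeq2 176 (37 higher, 139 lower), with 0 to 1 as single libraries were left out. In stimulated against SUI the edgeR count of 2 became 1 with library totals, 208 with DESeq2 (153 higher, 55 lower), 48 with voom (32 higher, 16 lower), 1 with a replicate block and 0 with 6 libraries, with log2(FPKM + 1), with log2(FPKM + 0.1) and with log2(FPKM + 1) unfiltered, and 0 to 3 as single libraries were left out. In stimulated against blank the count of 1 became 21 with DESeq2 (8 higher, 13 lower), 0 with 6 libraries, the replicate block, log2(FPKM + 1) and its unfiltered form, and 0 to 1 as single libraries were left out. The cause was not tested.

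Of 480 values of the members' log2 changes, 64 changed sign and 416 did not. Some of these fits differ little from the main one or leave out a library of the group not compared. The 416 are therefore no measure of how firm the signs are. With the block, 5 of 8 signs were positive in SUI against blank, 3 of 8 in stimulated against SUI and 6 of 8 in stimulated against blank. In SUI against blank, signs turned with the block for Adipoq (-0.24) and Plin1 (-0.16), and for Lpl with library totals (0.15), no filter (0.002), log2(FPKM + 1) with or without the filter (0.23) and log2(FPKM + 0.1) (0.23). In stimulated against SUI, the block gave -0.012 for Adipoq and -0.28 for Plin1. The log2(FPKM + 1) scale, with or without the filter, gave -0.16 for Adipoq, -0.16 for Plin1, -0.10 for Fabp4 and -0.04 for Lpl, and log2(FPKM + 0.1) gave -0.30, -0.54, -0.10 and -0.041 for the same genes. Library totals gave -0.13 for Fabp4 and -0.01 for Lpl, 6 libraries gave -0.008 for Fabp4, and voom gave 0.50 for Lep, 0.50 for Cidec and 0.19 for Lipe. In stimulated against blank, the block gave -0.26 for Adipoq and -0.44 for Plin1, and log2(FPKM + 0.1) gave -0.12 for Plin1.

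As single libraries were left out, SUI against blank ran from -0.66 to 1.01 for Adipoq, -0.39 to 0.85 for Plin1, 0.16 to 2.47 for Lep, 0.07 to 0.77 for Fabp4, 0.40 to 1.96 for Cidec, -0.15 to 0.15 for Lpl, -0.18 to 0.43 for Pparg and 0.27 to 1.05 for Lipe. Stimulated against SUI ran from -1.14 to 1.29 for Adipoq, -1.55 to 0.76 for Plin1, -1.84 to 1.02 for Lep, -0.25 to 0.46 for Fabp4, -1.62 to 0.67 for Cidec, -0.023 to 0.35 for Lpl, -0.045 to 0.73 for Pparg and -0.49 to 0.044 for Lipe. Stimulated against blank ran from -0.78 to 1.28 for Adipoq, -1.35 to 1.03 for Plin1, -0.50 to 2.32 for Lep, 0.28 to 0.85 for Fabp4, -0.36 to 1.76 for Cidec, -0.034 to 0.35 for Lpl, 0.15 to 0.92 for Pparg and 0.06 to 0.88 for Lipe.

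Library totals moved the median of all genes to 0.194, -0.107 and 0.088 in SUI against blank, stimulated against SUI and stimulated against blank. Replicate numbers did not pair the libraries: same-numbered deviations correlated between -0.22 and 0.11, and 2 of 9 libraries correlated best with their own number. With 3 libraries a group and this spread, the stimulated against SUI intervals of Adipoq, Plin1, Lep and Cidec reach beyond a log2 change of 1 in both directions.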
